A study of Glycine max with 10 samples.

Results

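NAC proteins are plant-specific transcription factors that share a conserved DNA-binding domain at the N-terminus, named after the founding genes NAM, ATAF and CUC. Members of the family are known for roles in meristem boundaries, secondary walls, drought and salt responses and senescence, and several NAC factors of Arabidopsis switch on chlorophyll breakdown as leaves or siliques age. A maturing soybean seed loses its green colour and dries, so the family is followed here through that phase. The genes were taken as every probe set of the Affymetrix Soybean array that the platform annotation pairs with a single gene whose symbol is NAC followed by digits. The rule found 30 probe sets of 15 genes, among 37593 probe sets on each array, of which 8677 had a single gene symbol, 370 had several and 28546 had none. All 15 genes carry the same symbol in the RefSeq gene table. Another 5 probe sets name a NAC gene among several genes and were kept apart. A probe set is a group of short probes for 1 transcript, and the suffixes _s_at, _x_at and _a_at mark probe sets that can also pick up related transcripts.

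The study sampled developing whole seeds of 1 soybean variety, Evans, grown in the field, at 5 ages counted in days after flowering (DAF), namely 25, 30, 40, 45 and 50 DAF, with 2 replicates per time point, each a pool of seeds from several plants. All groups share the genotype and differ in age alone by their labels, and each of the 10 arrays holds 1 sample. By the study's methods the number of seeds pooled also varied with age, and it was smallest at 45 DAF. Its part in the spread between replicates was not tested. Expression values were fluorescence signals, scaled so that every array has the same median of 309.9 units. Changes are log2 ratios of the later over the earlier time point with their standard errors (SE), tested with limma with Benjamini-Hochberg adjusted p-values (adjusted p) over all probe sets.

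With n = 2 per time point, p-values measure the spread between pooled samples, and the number of arrays limits the precision. The replicates at 45 DAF correlated less (r = 0.8804 over probe sets) than those of the other time points (r = 0.9188 to 0.9271), and the deposited array medians were 303.8 to 325.2 units up to 45 DAF and 220.8 and 222.8 units at 50 DAF. Signals of 7 storage protein and other embryo genes (11 probe sets, among them GY1, a glycinin subunit, and KTI3, a trypsin inhibitor) summed to 400214 to 500116 at 50 DAF and to 489622 to 633738 at 25 DAF. HPS and SCB1, taken as seed coat genes, summed to 207 to 313 at 50 DAF and to 67985 to 77741 at 25 DAF. HPS made up most of the 25 DAF sum, with a mean of 55592 units against 17271 units for SCB1. CAB3 and VSPA (13 probe sets) had been listed as leaf and pod wall genes, but by the study's methods the seeds were removed from the pods. Their signals therefore cannot be read as an amount of leaf or pod wall. For these 2 genes the sums were 4024 to 4698 at 50 DAF. At 25 DAF they were 115668 to 142962, mostly from 2 CAB3 probe sets with means of 50237 and 41415 units. Of the 13, 5 were lower at 50 than at 25 DAF and 1, also of CAB3, was higher (log2 difference 2.30). The shares over all probe sets were 19.3% lower and 24.6% higher. The embryo sums overlapped between 25 and 50 DAF, but single members moved. Of the 11 embryo probe sets, 1 was higher and 2 were lower at 50 than at 25 DAF (limma, adjusted p below 0.05). Over all probe sets 24.6% were higher and 19.3% lower. GY3 changed by a log2 difference of -4.85, GY5 by -0.76 and 1 probe set of CG-1 by 2.72. The sums of HPS and SCB1 and of CAB3 and VSPA moved with the changes between 25 and 50 DAF given for the NAC genes. Their part in these changes was not tested, nor was the seed tissue in which each of them was expressed. In whole seeds, fewer cells of a type and less RNA per cell cannot be told apart.

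Most NAC genes that changed were more abundant at 50 than at 25 DAF. Among them, 1 probe set of NAC19 was also higher at 40 than at 25 DAF. NAC2, NAC3, NAC19 and NAC26 had a probe set that was higher at 45 than at 25 DAF. At 50 DAF 9 of the 15 genes were higher than at 25 DAF (NAC1, NAC2, NAC3, NAC4, NAC12, NAC19, NAC26, NAC27 and NAC51), NAC6 was lower, and 5 genes had no probe set past the threshold (NAC14, NAC018, NAC22, NAC23 and NAC34). NAC1 is counted by its _x_at probe set alone, a kind that can also pick up related transcripts. The NAC4 probe set shares its annotated target with 1 probe set of NAC27, and those 2 signals cannot be told apart. Counted as probe sets, 16 of 30 were higher and 1 was lower at an adjusted p below 0.05, by log2 differences of 3.52 to 6.53 for those that were higher. The upper end is NAC1, read at 2.2 and 25.1 units at 25 DAF, and was 3.56 with 50 units added to every signal. Over all probe sets 43.9% passed this test, 24.6% higher and 19.3% lower. The median log2 difference of the 30 NAC probe sets was 3.52, against 0.17 for all probe sets. With the values as deposited, without scaling to equal medians, 15 NAC probe sets were higher and 4 lower, where 17% of all probe sets were higher and 26.8% lower, and the medians were 3.06 and -0.29. Both 50 DAF arrays lay above all 8 others in 16 NAC probe sets and below all 8 others in 3, where 28.8% and 18.1% of all probe sets did so.

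**Figure D1:**
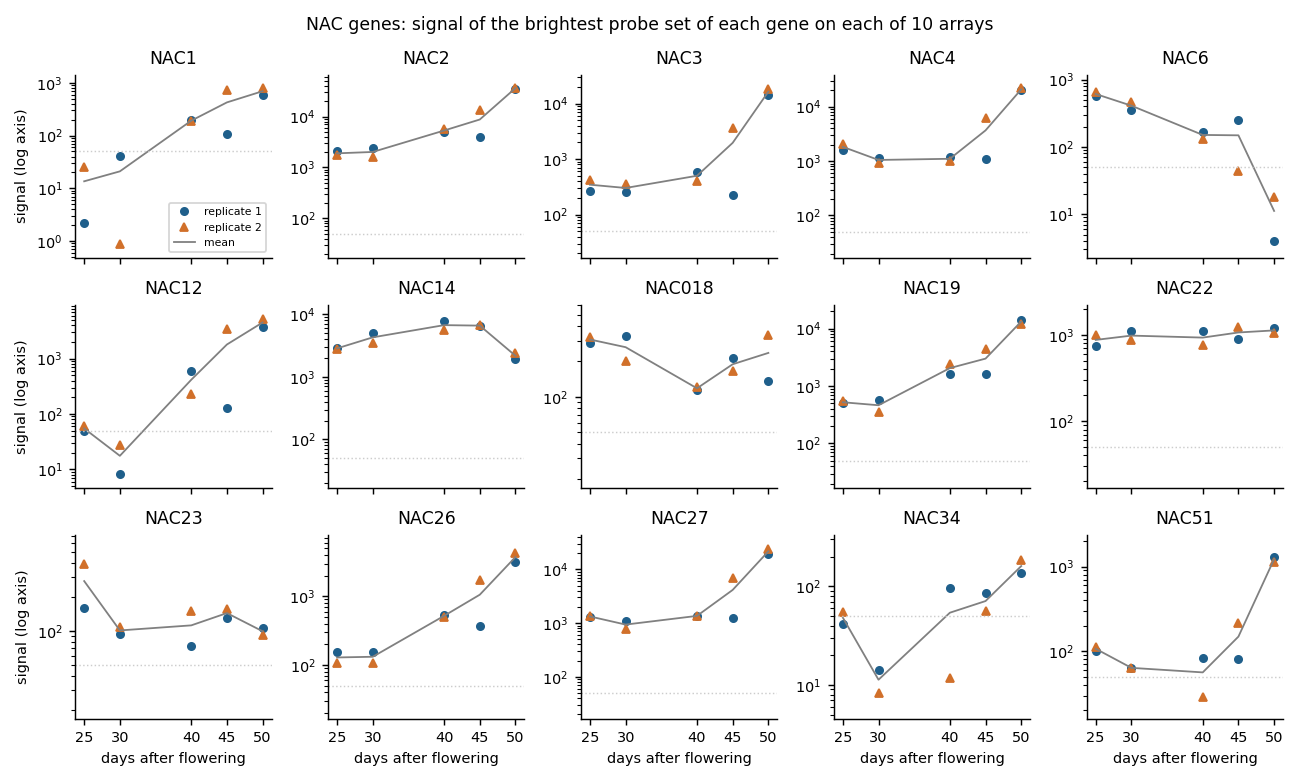
Signal (log axis, scaled to equal array medians) against days after flowering for the probe set with the highest mean signal of each of the 15 NAC genes. Circles are replicate 1, triangles replicate 2, lines join the means of 2 arrays and the dotted line marks 50 units. The highest mean falls at 50 DAF in 11 of the 15 genes, at 25 DAF in 3 and at 40 DAF in 1 (NAC14).

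The F-test over the 5 time points called 15 of the 30 NAC probe sets, in 10 genes, at an adjusted p below 0.01, against 24.0% of all probe sets. The count fell to 9 without replicate 2 at 25 DAF, to 2 without replicate 1 at 50 DAF and to 6 without replicate 2 at 50 DAF. Without both 50 DAF arrays no NAC probe set was called. The step with the most calls between neighbouring time points was the last one. At 50 DAF 12 NAC probe sets of 7 genes (NAC2, NAC3, NAC4, NAC19, NAC26, NAC27 and NAC51) were higher than at 45 DAF, by log2 differences of 2.20 to 4.15, and 2 were lower (NAC6 and NAC14). Over all probe sets 31.2% passed this test, 18.6% higher and 12.6% lower, and the median log2 difference was 1.84 for the NAC probe sets and 0.19 for all. With the values as deposited, 11 were higher and 4 lower, where 9.52% of all were higher and 20.9% lower. With quantile normalization 11 were higher and 2 lower, where 9.96% of all were higher and 15.1% lower. Without replicate 1 at 50 DAF the count fell to 6 of 30, with 5 higher and 1 lower.

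The earlier steps gave no NAC calls. From 30 DAF against 25 DAF (0.0106% of all probe sets called), 40 DAF against 30 DAF (1.16%) and 45 DAF against 40 DAF (0%), limma called 0 of the 30 NAC probe sets, with 3, 9 and 0 at an unadjusted p below 0.05, where 2.73%, 15.2% and 2.92% of all probe sets had such a p. The median log2 differences of the NAC probe sets in these steps were -0.42, 0.74 and 0.52, against -0.03, 0.02 and -0.01 for all probe sets. The 40 to 30 DAF count became 6 without either 45 DAF array, where 2447 of all probe sets were called in place of 436. The 45 to 40 DAF count became 9 without replicate 1 at 45 DAF, which leaves 1 array at that time, where 1194 of all probe sets were called in place of 0. Over wider intervals, 2 NAC probe sets (NAC14 and NAC19) were higher at 40 DAF than at 25 DAF, where 3.09% of all were called, and 1.55% were higher. At 45 DAF 5 were higher than at 25 DAF (NAC2, NAC3, NAC14, NAC19 and NAC26), where 6.01% of all were called and 2.87% were higher, and 4 were higher than at 30 DAF (NAC12, NAC19 and 2 of NAC3), where 2.71% were called and 1.51% were higher. At 50 DAF 17 were higher and 3 lower than at 30 DAF, where 42.5% of all were called, 24.1% higher and 18.4% lower. Against 40 DAF the counts at 50 DAF were 13 higher and 3 lower, where 36.7% of all were called, 21.5% higher and 15.2% lower.

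**Figure D2:**
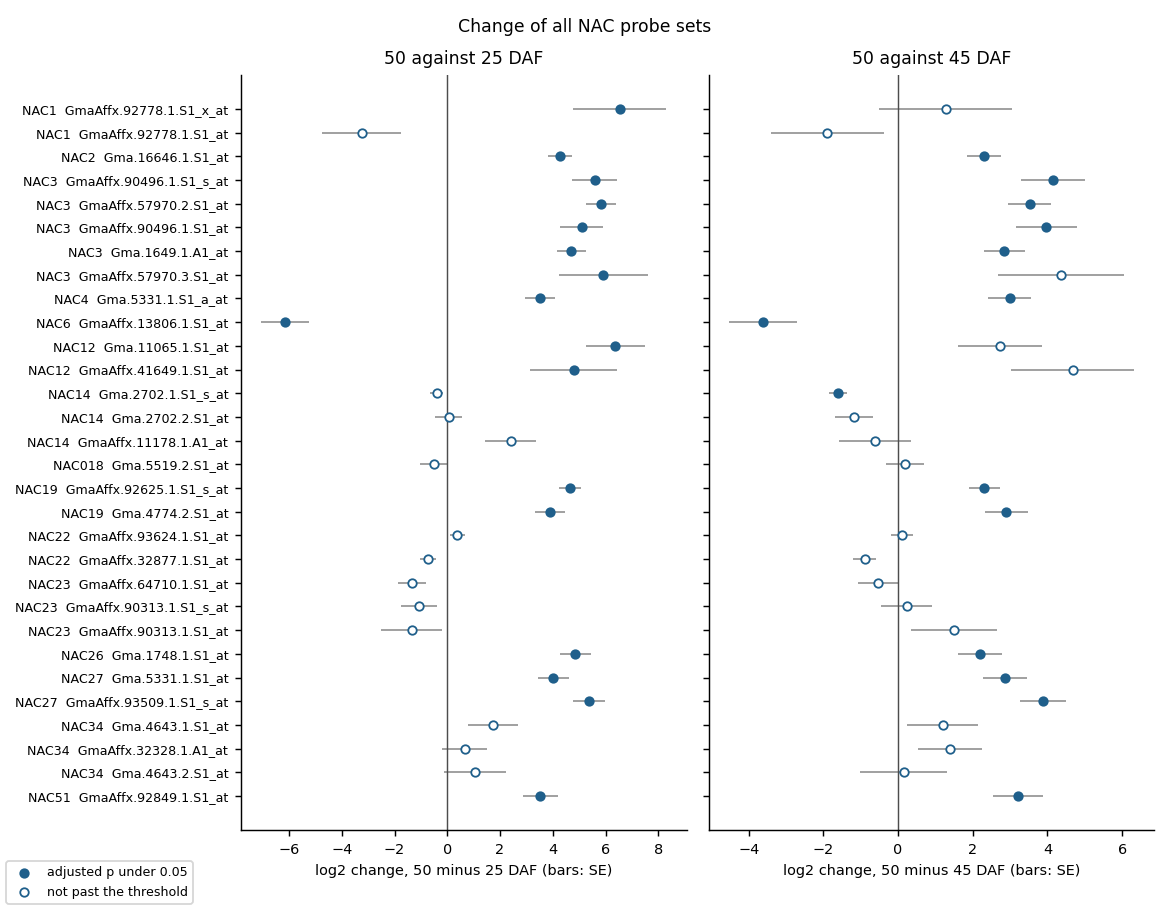
Log2 change of each of the 30 NAC probe sets at 50 DAF against 25 DAF (left) and against 45 DAF (right), with bars of 1 SE from limma. Filled points passed an adjusted p of 0.05; the 16 filled points to the right of 0 in the left panel lie between 3.52 and 6.53, and NAC6 lies at -6.15.

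NAC2, NAC19 and NAC26 were among the 11 genes whose brightest probe set had its highest mean at 50 DAF. In 1 probe set of NAC19 the signal was also higher at 40 than at 25 DAF. NAC2, which takes part in stress responses when expressed in tobacco, had signals of 2062 and 1730 at 25 DAF, 2461 and 1575 at 30 DAF, 4966 and 5690 at 40 DAF, 4022 and 13535 at 45 DAF and 35426 and 37400 at 50 DAF. Every array from 40 DAF on lay above all 4 earlier ones, and the 50 DAF pair lay apart from the rest. The log2 change was 4.27 ± 0.46 (SE) at 50 against 25 DAF (limma, adjusted p = 0.000153), 1.49 at 40 against 25 DAF (adjusted p = 0.119, not past the threshold), 1.97 at 45 against 25 DAF (adjusted p = 0.0413) and 2.30 at 50 against 45 DAF (adjusted p = 0.00564, and 0.0513 without replicate 1 at 50 DAF).

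The NAC19 gene, whose entry also bears the name NAC20, a factor linked to salt and freezing tolerance, is read by 2 probe sets. GmaAffx.92625.1.S1_s_at gave 497 and 545 at 25 DAF, 569.9 and 354 at 30 DAF, 1634 and 2459 at 40 DAF, 1619 and 4369 at 45 DAF and 14310 and 12174 at 50 DAF. It was the NAC probe set with the smallest adjusted p at 50 against 25 DAF, at a log2 change of 4.66 ± 0.42 (limma, adjusted p = 8.57e-05). It was also higher at 40 than at 25 DAF by 1.95 (adjusted p = 0.0451), and its difference between 40 and 30 DAF, 2.16, missed the threshold (adjusted p = 0.051). The other probe set, Gma.4774.2.S1_at, gave 249 and 346 at 40 DAF, against 260 and 290.2 at 25 DAF, and 3881 and 4298 at 50 DAF. Its difference at 40 against 25 DAF was 0.09 (adjusted p = 0.872). The readings of NAC19 at 40 DAF therefore overlap those at 25 DAF in 1 probe set and lie clear of them in the other. Its log2 change at 50 against 25 DAF was 3.89 (adjusted p = 0.000609), and its call at 50 against 45 DAF (2.90) was lost without replicate 1 at 50 DAF (adjusted p = 0.0531).

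NAC26 gave 153 and 106 at 25 DAF, 156 and 108 at 30 DAF, 538 and 503 at 40 DAF, 372 and 1739 at 45 DAF and 3160 and 4301 at 50 DAF. The order of the time points was that of NAC2, with no overlap between the first 4 arrays and the other 6. Its log2 change was 4.86 ± 0.59 at 50 against 25 DAF (limma, adjusted p = 0.000269) and 2.66 at 45 against 25 DAF (adjusted p = 0.0367), and 2.03 at 40 against 25 DAF did not pass (adjusted p = 0.105). The difference of 2.20 at 50 against 45 DAF (adjusted p = 0.0214) did not hold with quantile normalization (1.67, adjusted p = 0.0774), with the values as deposited (1.70, adjusted p = 0.0556) or with a prior variance that does not follow the mean signal (adjusted p = 0.0776), nor without replicate 1 at 45 DAF (adjusted p = 0.1), replicate 1 at 50 DAF (adjusted p = 0.1) or replicate 2 at 50 DAF (adjusted p = 0.106).

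NAC12 and NAC1 began near the floor of the array. NAC12 (Gma.11065.1.S1_at) gave 49.3 and 59.9 at 25 DAF, 8.18 and 26.9 at 30 DAF, 601 and 229.6 at 40 DAF, 130.1 and 3477 at 45 DAF and 3806 and 5217 at 50 DAF. The first 4 arrays were near or below 50 units and the other 6 were at 130.1 units or more. The log2 change was 6.36 ± 1.12 at 50 against 25 DAF (limma, adjusted p = 0.00166) and 5.50 at 45 against 30 DAF (adjusted p = 0.0416), while 2.73 at 50 against 45 DAF did not pass (adjusted p = 0.0983). The dimmer NAC12 probe set, GmaAffx.41649.1.S1_at, rose by 4.79 (adjusted p = 0.0412), and by 2.14 with 50 units added to every signal. The call was lost when any array other than those at 45 DAF or replicate 1 at 25 DAF was left out, with the values as deposited (adjusted p = 0.0588) and with a prior variance that does not follow the mean signal (adjusted p = 0.0736). The highest adjusted p was without replicate 2 at 25 DAF, at a log2 change of 2.79 (adjusted p = 0.31).

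NAC1 had 2 probe sets that ran opposite ways. The _x_at probe set gave 2.2 and 25.1 at 25 DAF, 41.2 and 0.865 at 30 DAF, 197 and 186 at 40 DAF, 107 and 746 at 45 DAF and 591 and 801 at 50 DAF. The _at probe set stayed at or below 41.1 units on all arrays and was at 2.52 and 2.87 at 50 DAF. The correlation of the 2 over the 10 arrays was -0.49. The log2 change of the first was 6.53 ± 1.78 at 50 against 25 DAF (limma, adjusted p = 0.015), and it lost its call with a prior variance that does not follow the mean signal (adjusted p = 0.0577) and without replicate 1 at 25 DAF (4.47, adjusted p = 0.15), replicate 1 at 50 DAF (adjusted p = 0.0727) or replicate 2 at 50 DAF (adjusted p = 0.0767). That of the second was -3.25 (adjusted p = 0.112). An _s_at probe set with the same number as these 2 lists NAC26 with NAC1. How much of the _x_at signal belongs to NAC26 was not tested.

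NAC27, NAC4, NAC3 and NAC51 were higher at 50 DAF than at each of 25, 30 and 40 DAF in their brightest probe sets, and no probe set of these genes passed the test at 40 against 25 DAF. NAC27, also named SIN1 for its induction by salt and known for promoting root growth under salt stress, gave 1310 and 1346 at 25 DAF, 1101 and 772 at 30 DAF, 1374 and 1347 at 40 DAF, 1249 and 7036 at 45 DAF and 19317 and 24006 at 50 DAF (Gma.5331.1.S1_at). The first 7 arrays in time, replicate 1 at 45 DAF included, spanned 772 to 1374, and replicate 2 at 45 DAF lay between them and the 50 DAF pair. The log2 change was 4.02 ± 0.58 at 50 against 25 DAF (limma, adjusted p = 0.000566) and 2.86 at 50 against 45 DAF (adjusted p = 0.00595, and 0.0522 without replicate 1 at 50 DAF). The second NAC27 probe set, GmaAffx.93509.1.S1_s_at, gave 8916 and 12339 at 50 DAF, against 198 and 326 at 25 DAF, a log2 change of 5.37 (adjusted p = 0.000215).

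The NAC4 probe set, Gma.5331.1.S1_a_at, is annotated with the same target accession as the brighter NAC27 probe set. It gave 1568 and 2077 at 25 DAF, 1154 and 939.5 at 30 DAF, 1190 and 1010 at 40 DAF, 1089 and 6224 at 45 DAF and 19921 and 21569 at 50 DAF. Its log2 change was 3.52 ± 0.57 at 50 against 25 DAF (limma, adjusted p = 0.00105) and 2.99 at 50 against 45 DAF (adjusted p = 0.0047). The correlation of the pair over the 10 arrays was 0.986, and how much of either signal belongs to NAC4 or to NAC27 cannot be told apart from these arrays.

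NAC3 was the gene with the most probe sets, and all 5 were higher at 50 than at 25 DAF, by log2 differences of 4.69 to 5.92. The brightest of them, GmaAffx.90496.1.S1_s_at, gave 269 and 423 at 25 DAF, 256 and 349 at 30 DAF, 597 and 405 at 40 DAF, 226 and 3697 at 45 DAF and 14264 and 18531 at 50 DAF. The first 7 arrays again overlapped, and the lowest value of all was replicate 1 at 45 DAF. The log2 change was 5.59 ± 0.85 at 50 against 25 DAF (limma, adjusted p = 0.000769) and 4.15 at 50 against 45 DAF (adjusted p = 0.00639, and 0.0637 without replicate 1 at 50 DAF). A second one, GmaAffx.57970.2.S1_at, gave 443 and 684 at 40 DAF, against 213 and 207 at 25 DAF (log2 difference 1.39, adjusted p = 0.228), and was higher at 45 than at 25 DAF by 2.29 (adjusted p = 0.0496). The dimmest, GmaAffx.57970.3.S1_at, was at 55 units or less up to 45 DAF and at 215 and 155 at 50 DAF. Its change at 50 against 25 DAF (5.92, adjusted p = 0.0187) was 2.09 with 50 units added to every signal. The call was lost without replicate 2 at 25 DAF (4.59, adjusted p = 0.141), replicate 1 at 50 DAF (adjusted p = 0.0883) or replicate 2 at 50 DAF (adjusted p = 0.0986).

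NAC51 gave 100.2 and 113 at 25 DAF, 63.2 and 64.2 at 30 DAF, 83.6 and 28.9 at 40 DAF, 80.3 and 218 at 45 DAF and 1302 and 1143 at 50 DAF. Its 4 arrays at 30 and 40 DAF were all below the 25 DAF pair, with a log2 difference of -1.11 at 40 against 25 DAF (adjusted p = 0.413). The log2 change was 3.52 ± 0.66 at 50 against 25 DAF (limma, adjusted p = 0.00229) and 3.21 at 50 against 45 DAF (adjusted p = 0.00657, and 0.0586 without replicate 1 at 50 DAF).

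**Figure D3:**
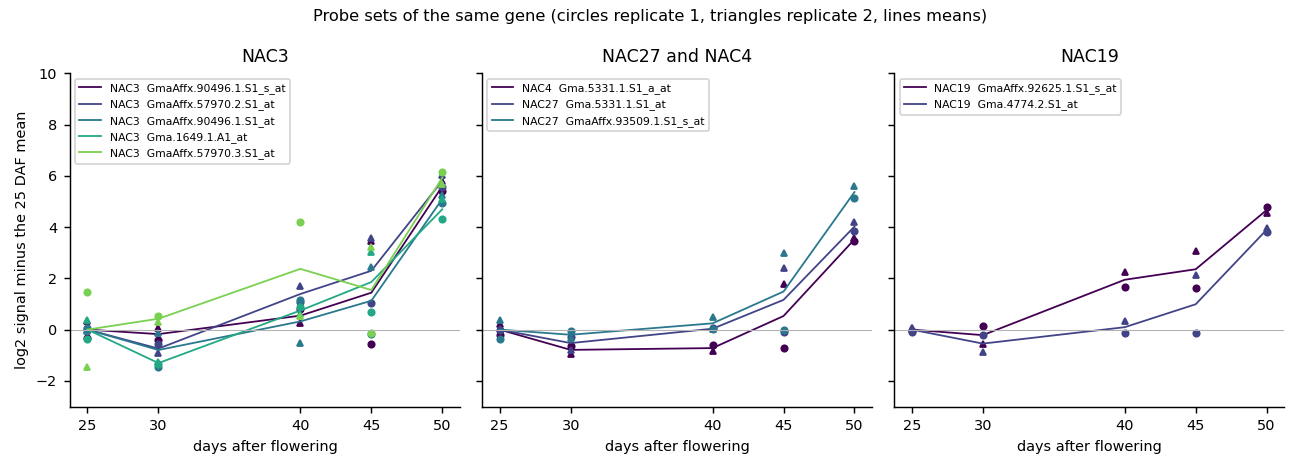
Log2 signal minus the probe set's own 25 DAF mean against days after flowering, for the 5 probe sets of NAC3, the 3 of NAC27 and NAC4 and the 2 of NAC19. Circles are replicate 1, triangles replicate 2 and lines means of 2 arrays; all 10 probe sets end between 3.52 and 5.92, and the 2 of NAC19 part at 40 DAF.

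How far each gene had moved before 50 DAF was set on a common scale, as the percent of its log2 change between the 25 and the 50 DAF means. At 40 DAF the values were 35% for NAC2, 41.8% for NAC26, 41.7% and 2.42% for the probe sets of NAC19, 43.6% for the brighter NAC12 probe set and 71.8% for NAC1. They were 0.864% and 4.56% for NAC27, -20.4% for NAC4, -31.7% for NAC51 and 6.37% to 40% for the 5 probe sets of NAC3, where a negative value means a signal below that at 25 DAF. NAC6, which moved downwards, had covered 33% of its change. The positions of NAC1 and NAC12 start from signals near the floor of the array, and the whole change of NAC1 was 4.47 or 8.59 with 1 of its 25 DAF arrays left out, so its position is not fixed. This split of the genes was made after their values were seen, and the differences between genes were not tested.

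At 45 DAF the position of a NAC gene depended on the replicate. Replicate 2 was above replicate 1 in all 16 NAC probe sets that were higher at 50 than at 25 DAF, by a median log2 difference of 2.52 (1.43 to 5.49). Among all 9238 probe sets that were higher at 50 than at 25 DAF, 83.3% had replicate 2 above replicate 1, with a median of 0.52. In NAC6, which was lower at 50 DAF, replicate 2 was below replicate 1 by 2.52. The summed signal of HPS and SCB1 moved in the same pair, at 14682 in replicate 2 and 55246 in replicate 1 at 45 DAF. At that age the sum was nearly all HPS, at 34924 ± 28644 units (SD, n = 2), against 39.8 ± 39.6 units for SCB1. From 25 to 40 DAF the SCB1 mean went from 17271 to 111 units, while the HPS means were 55592 and 56144 units. The part of HPS in the NAC values was not tested. With replicate 1 at 45 DAF left out, the 12 NAC probe sets higher at 50 than at 45 DAF had log2 changes of at most 2.62, with a median of 1.82, and 11 kept their call. With replicate 2 left out the changes were 3.05 to 6.05, with a median of 4.12, and 12 kept their call. Each of these fits has 1 array at 45 DAF, which is assumed to vary like those of the other time points.

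**Figure D4:**
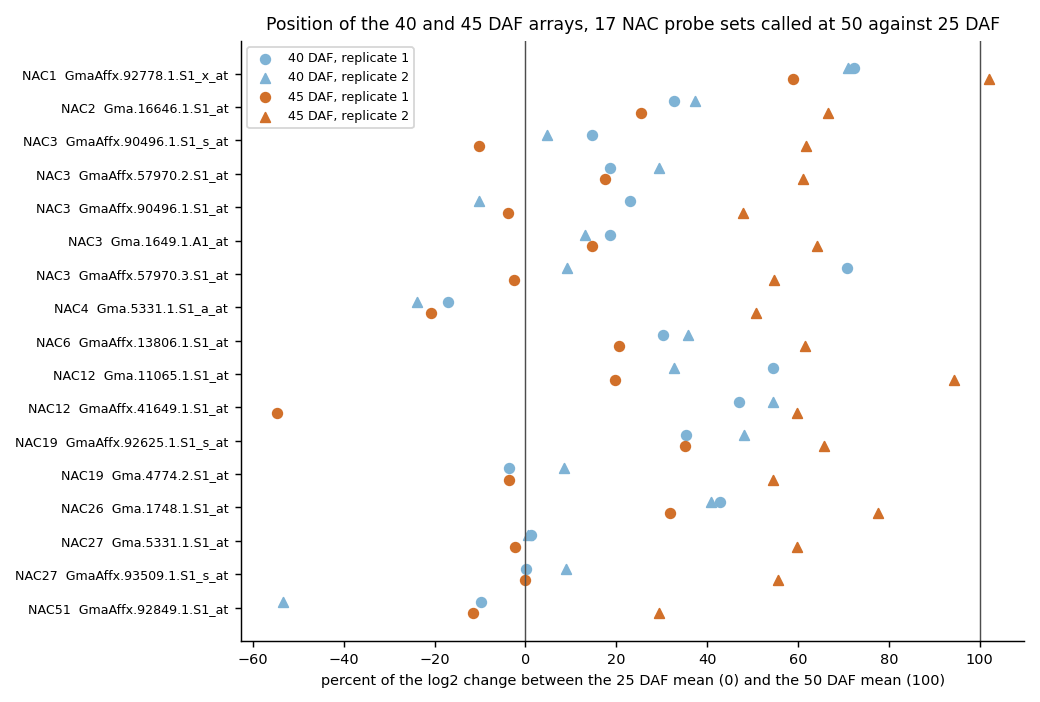
Position of each 40 and 45 DAF array, as percent of the log2 change between the 25 DAF mean (0) and the 50 DAF mean (100), for the 17 NAC probe sets called at 50 against 25 DAF. Circles are replicate 1 and triangles replicate 2; at 45 DAF every triangle lies to the right of its circle, and at 40 DAF the pairs of NAC2, NAC26 and NAC6 lie between 30.2 and 42.8%.

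NAC6 was the gene that was lower at 50 than at 25 DAF. In soybean it is known for a part in cell death under osmotic and endoplasmic reticulum stress. Its signals were 563 and 663 at 25 DAF, 349.7 and 472 at 30 DAF, 168 and 133 at 40 DAF, 254 and 44.4 at 45 DAF and 4.05 and 18.3 at 50 DAF. The 30 DAF pair lay below the 25 DAF pair and the 40 DAF pair below both, with no overlap, and both 50 DAF arrays were below 50 units, near the floor of the array. The log2 change was -6.15 ± 0.91 at 50 against 25 DAF (limma, adjusted p = 0.000674), and -3.44 with 50 units added to every signal (adjusted p = 0.000301). The change of -3.62 at 50 against 45 DAF (adjusted p = 0.0158) lost its call with a prior variance that does not follow the mean signal (adjusted p = 0.056) and without replicate 1 at 45 DAF (-2.05, adjusted p = 0.117) or replicate 1 at 50 DAF (-2.26, adjusted p = 0.13).

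NAC14 had its peak in the middle of the series. Gma.2702.1.S1_s_at gave 2898 and 2779 at 25 DAF, 5079 and 3433 at 30 DAF, 7795 and 5541 at 40 DAF, 6520 and 6580 at 45 DAF and 1889 and 2437 at 50 DAF. The 50 DAF pair was below all other arrays and the 40 and 45 DAF arrays were above them all. It was higher by a log2 difference of 1.21 ± 0.24 at 40 against 25 DAF (limma, adjusted p = 0.036) and lower by -1.62 at 50 against 40 DAF (adjusted p = 0.00117), and over time it was called at an adjusted p of 0.00226. At 50 against 25 DAF the difference was -0.40 (adjusted p = 0.218). The other 2 NAC14 probe sets were not called over time (adjusted p = 0.176 and 0.0725) and had their highest means at 45 and 40 DAF.

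The remaining 4 genes had no probe set called over time or at 50 against 25 DAF. NAC22 differed between its probe sets. GmaAffx.93624.1.S1_at stayed between 756 and 1244 units over all 10 arrays, with a log2 difference of 0.38 ± 0.29 at 50 against 25 DAF (limma, adjusted p = 0.339). GmaAffx.32877.1.S1_at gave 217 and 186 at 50 DAF, below all other arrays, against 533 and 366 at 30 DAF. It was lower at 50 than at 30 DAF by -1.14 (limma, adjusted p = 0.0153) and than at 40 DAF by -0.92 (adjusted p = 0.0441). NAC018 lay between 115 and 336 units and was not called in any of the 10 pairs of time points. The 3 probe sets of NAC23 had their highest means at 25 DAF, with log2 differences of -1.35 to -1.08 at 50 against 25 DAF, and none was called in any pair. NAC34 gave 138 and 183 at 50 DAF, against 14.3 and 8.22 at 30 DAF, in Gma.4643.1.S1_at (log2 difference 3.87, adjusted p = 0.00974), and its other 2 probe sets were not called.

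Over the 10 arrays, the brightest probe sets of NAC2, NAC19 and NAC26 correlated with each other at r = 0.98 to 0.99, NAC27 correlated with NAC3 at 0.98 and with NAC4 at 0.99, and NAC6 with NAC2 at -0.97. These values describe 10 arrays that share 5 time points and the 50 DAF step, and carry no test. Likeness was also ranked among 1138 of the 37593 probe sets. These had a single gene symbol that does not begin with LOC or GLYMA, and a mean at or above the array median at 1 time point or more. The genes that carry a NAC name only as a synonym have LOC symbols and were not ranked. The word closest below holds within these 1138. The closest to NAC2 were IFS2, an isoflavone synthase (r = 0.994), NAC26 (0.992) and MYB175 (0.992). The closest to NAC26 were the seed maturation protein PM27 (0.995), SGR1 (0.994), a stay-green protein of chlorophyll breakdown, and the glutathione transferase GST24 (0.993). SGR1 also stood near NAC19 (0.989), behind DGAT1A, which makes triacylglycerol (0.991), and PM35 (0.990), and SGR2 was the closest to NAC12 (0.969). All these ranks, and those that follow, are for the brightest probe set of each gene. The dimmer probe set of NAC19 was closest to NAC27 (0.996) and that of NAC12 to BCH3 (0.953), with no stay-green gene among the 3 closest to either.

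CAT4, a catalase, was the closest to NAC3 (r = 0.994), followed by the dehydration-response factor DREB1 (0.988) and MYB178 (0.987). The closest to NAC27 was the second probe set of NAC19 (0.996), ERF6 was the closest to NAC4 (0.992), and COI1, the jasmonate receptor subunit, to NAC51 (0.985). NAC6 had PRP3, a proline-rich cell wall protein (0.984), SOY69 (0.983) and CYP98A2, an enzyme of phenylpropanoid synthesis (0.982). WRKY51 was the closest to NAC14 (0.961).

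Genes that carry a NAC name only as a synonym in the RefSeq table numbered 5, with 11 probe sets, of which 6 were higher and 1 was lower at 50 than at 25 DAF and the median log2 difference was 3.49. Of all probe sets 24.6% were higher and 19.3% lower. The 6 were the 4 probe sets of NAC21, also named GmNAC109 (3.49 to 4.99), and the 2 of NAC69 (5.00 and 4.37). The lower one was NAC17, also named GmNAC019, at 69.7 ± 26.4 units at 50 DAF and 186 ± 1.99 units at 25 DAF (SD, n = 2, limma log2 difference -1.47, adjusted p = 0.0369). NAC32 and NAC55 were not called.

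Other transcription factor families on the array were tested in the same fit. At 50 against 25 DAF, 53.3% of the NAC probe sets were higher and 3.33% lower, against 20.4% and 8.74% of 103 WRKY probe sets, 35.7% and 16.3% of 98 MYB probe sets and 26.1% and 25% of 88 bZIP probe sets. The median log2 differences were 3.52 for NAC, 0.62 for WRKY, 0.58 for MYB and 0.30 for bZIP. Probe sets of 1 gene share their target, so these shares are descriptions and the families were not tested against each other.

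**Figure D5:**
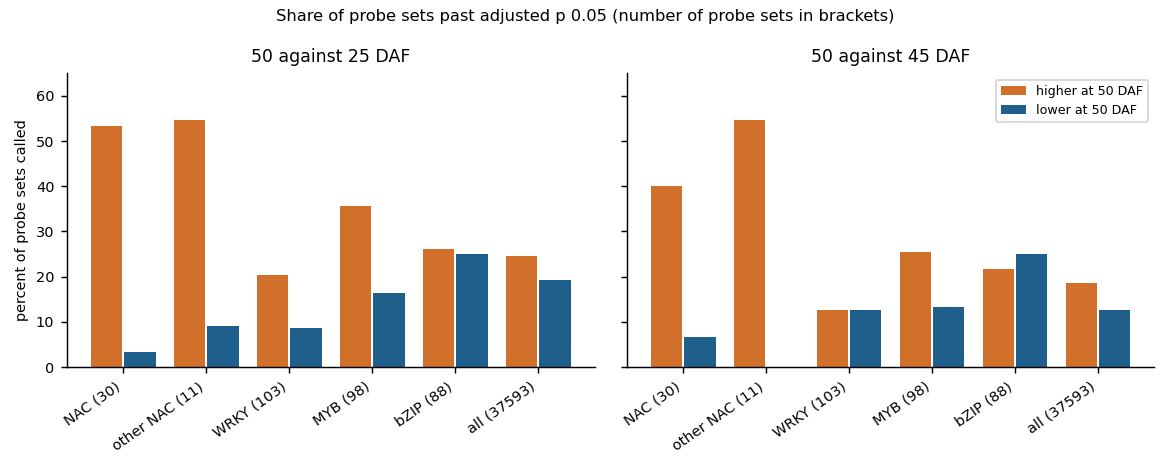
Percent of probe sets higher (orange) and lower (blue) at 50 DAF than at 25 DAF (left) and than at 45 DAF (right) at an adjusted p below 0.05, for the NAC genes, the genes with a NAC synonym, 3 other transcription factor families and all 37593 probe sets. The NAC bars stand at 53.3% higher and 3.33% lower on the left.

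Genes of processes for which NAC factors are known were read in the same fit. Of the 3 stay-green genes, SGR1 was higher at 50 than at 25 DAF by a log2 difference of 5.57 (limma, adjusted p = 9.34e-05) and SGR2 by 4.64 (adjusted p = 0.000503), while SGR differed by -0.15 (adjusted p = 0.583). SGR1 stood at 1522 ± 179 units at 40 DAF, against 286 ± 4.91 units at 25 DAF (SD, n = 2). The dehydration genes read were DREB, dehydrin and late embryogenesis abundant genes. Of their 9 probe sets, 6 were higher and 0 lower, where 24.6% of all probe sets were higher and 19.3% lower. The higher ones were MAT1, a dehydrin (9.02), SLE2, a late embryogenesis abundant protein (10.17), DREB1 (3.45), LEA5 (1.28) and the probe sets of DREB2 (5.78 and 4.56). DREB3 (-0.48), DREB5 (0.39) and DREB1-like (0.82) were not called. The embryo maturation regulators LEC1-A (-4.68) and WRI1B (-4.39) were both lower.

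The 5 probe sets that name several genes were read for comparison. Both that list NAC26 with NAC1 were higher at 50 than at 25 DAF, by log2 differences of 6.65 (limma, adjusted p = 0.000231) and 4.85 (adjusted p = 0.000474), and the one that lists NAC2 with NAC022 by 2.88 (adjusted p = 6.06e-05). The one that lists NAC14 with NAC15 had 4717 and 3845 at 40 DAF, against 1960 and 1920 at 25 DAF, and 1470 and 1266 at 50 DAF, the order seen for NAC14. The one for NAC5 differed by 0.12 (adjusted p = 0.762).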

How the data were processed

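RNA from whole seeds was hybridised to 10 Affymetrix Soybean arrays, 2 per time point. The deposited values are linear signal intensities, 1 per probe set, which the authors computed with Microarray Suite 5.0 (MAS 5.0), and detection calls were not used here. MAS 5.0 subtracts a background estimated on each array, so that small signals vary widely between arrays. Each array was divided by its median and multiplied by 309.9, the median of the array medians, for display, and log2 values, centred on the array median, went into a limma model (version 3.58.1, R 4.3.3) that held terms for the 5 time points and for the replicate, with a prior variance that follows the mean signal. The block for replicate number follows the design given in the study's methods. The F-test over time was called at an adjusted p below 0.01 and each of the 10 pairs of time points below 0.05, adjusted by Benjamini-Hochberg over all 37593 probe sets. The script was tested on simulated data first.

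Gene names came from the platform annotation, checked by gene ID against the RefSeq table (Glycine_max_v4.0). No genome build is named for these values, so coordinates are not given, and no sequences were used here. All probe sets of the NAC genes are described. The 3 most alike probe sets by Pearson's r were ranked for each of them, and the lists of other NAC genes, stay-green, dehydration, maturation and marker genes were read in the same fit. Members and lists were chosen with earlier results of these data known. Alternatives were the fit with no replicate block, quantile normalization, no centring, another prior variance, 50 units added, a filter on dim probe sets, each array left out and the ordinary F-test of the methods. No sample columns were left unused. The study's results text names 35 DAF where the labels have 40 DAF, and the labels were followed.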

Additional observations from a re-analysis of the deposited data

How the results depend on the processing

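No change of the 30 NAC probe sets that passed the test at 50 against 25 DAF or at 50 against 45 DAF reversed its direction under any alternative. At 50 against 25 DAF the count of 17 stayed between 14 and 18 with 1 array left out and between 12 (of 15 left by the filter) and 19 otherwise, and 14 of the 17 calls held in every alternative in which they were tested. At 50 against 45 DAF the count of 14 was 6 to 17 with 1 array left out, the lowest without replicate 1 at 50 DAF, and 6 of the 14 calls held throughout. The 15 calls over time became 0 with a prior variance that does not follow the mean signal. They also became 0 with the ordinary F-test of the methods (an F-test per probe set with no variance shared between probe sets), adjusted here by Benjamini-Hochberg. That test called 0 of all probe sets, and 4 NAC probe sets had an unadjusted p below 0.01. The study used q-values in place of that adjustment and reported probe sets that changed over time. The 0 is therefore not the study's own result. Leaving out 1 array gave 2 to 16 calls over time, and leaving out both 50 DAF arrays, chosen after seeing the data, gave 0. Without both 45 DAF arrays, also chosen after seeing the data, 16 were called over time and 18 at 50 against 25 DAF.

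The 0 calls at 40 against 30 DAF became 1 with no replicate block, with quantile normalization, with the values as deposited, with 50 units added and with the filter at the array median, 0 to 6 with 1 array left out, and 6 without both 45 DAF arrays. The 0 calls at 45 against 40 DAF became 0 to 9 with 1 array left out, and those at 30 against 25 DAF stayed at 0 in all alternatives run. Apart from the losses named with each gene above, causes of these moves were not tested.

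The replicate numbers are shared between time points, but samples of the same number did not deviate together (correlations of -0.0336 to 0.0302 over the 10 pairs of time points), so they share only a number. With no replicate block the counts were 15 over time, 17 at 50 against 25 DAF and 15 at 50 against 45 DAF. The median log2 change of all probe sets at 50 against 25 DAF was 0.17 with centring, 0.04 with quantile normalization and -0.29 as deposited, and that of the NAC probe sets was 3.52, 3.10 and 3.06 in these settings. Signals near or below 50 units, as for NAC6 at 50 DAF, NAC12 and NAC1 before 40 DAF and the dimmest probe set of NAC3 before 50 DAF, limit how exactly a fold change can be given.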
